A study of Rattus norvegicus with 12 samples.

Results

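The 10 genes of the urea cycle and of ammonia handling followed here through rat liver RNA sequencing were Cps1, Otc, Ass1, Asl, Arg1, Nags, Slc25a15, Slc25a13, Gls2 and Glud1. They were taken by gene symbol from the deposited gene table, where all 10 were found among 40154 genes, and all 10 passed the filter on low counts that left 15916 genes for testing. Liver of Sprague Dawley rats was sampled in 4 groups of 3 libraries: a high fat diet given together with S-allylmercaptocysteine (HFD+SAMC), a high fat diet alone (HFD), a normal diet together with S-allylmercaptocysteine (Control+SAMC) and a normal diet alone (Control). S-allylmercaptocysteine (SAMC) is an organosulfur compound of aged garlic, and the series concerns its effect on fatty liver disease. Sex, age, feeding time and dose are absent from the labels, and so is any statement that each library is a separate animal, so p-values measure only the spread between these libraries, which may be technical. Replicate numbers are those of the sample titles, 2 to 4 in HFD and 1 to 3 in the other groups.

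The urea cycle is the liver's route for turning toxic ammonia into urea. Carbamoyl phosphate is made from ammonia in the mitochondria of hepatocytes and joined to ornithine, and the citrulline formed leaves for the cytosol, where another nitrogen enters from aspartate and urea is split off arginine. Periportal hepatocytes hold most of this pathway together with the glutaminase that feeds it, while a thin rim of pericentral hepatocytes recaptures leftover ammonia as glutamine. The enzymes are known to respond to protein intake, glucagon and glucocorticoids, and their activity is often reported to be low in fatty liver.

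Total counts ranged from 45680738 to 61937544 per library. Hepatocyte markers were strong throughout, albumin alone holding 7.32% to 21.8% of counts. Fibrinogen transcripts set 4 libraries apart: Fga was at 3378 to 3822 CPM (counts per 1000000 of the TMM-scaled library total) in HFD replicates 2 and 3, Control+SAMC replicate 1 and Control replicate 2, against 8221 to 18523 CPM in the other 8. Summed skeletal muscle markers reached 877 CPM in HFD+SAMC replicate 3 and at most 1.64 CPM elsewhere. The deposited RPKM of 1 other gene, RGD1562465, implied a length of 3377 bp in HFD+SAMC and Control libraries and 4432 bp in HFD and Control+SAMC libraries, so 2 lengths were used for this gene in the RPKM. Each comparison of groups that differ only in diet or only in SAMC crosses these 2 sets of libraries, and the interaction of diet and SAMC coincides with them. Whether the sets also differ in how libraries were made or counted is not known, and any such difference cannot be told apart from treatment in those comparisons. The diet effect averaged over SAMC, and the SAMC effect averaged over diet, hold both sets equally on each side. A set difference of constant log2 size cancels in these 2 averages, and any other would remain.

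The 10 genes lie on 9 chromosomes, at positions given here as in the deposited table, for which no build is named. Cps1 spans 74113437 to 74236274 on chromosome 9, Otc 13524804 to 13601074 on chromosome X, Ass1 10327411 to 10375847 on chromosome 3, Asl 30160922 to 30178348 on chromosome 12 and Arg1 21525421 to 21537872 on chromosome 1. Nags spans 90084607 to 90089693 on chromosome 10, Slc25a13 31134165 to 31757006 on chromosome 4 and Gls2 2605679 to 2621853 on chromosome 7. Slc25a15 (74505318 to 74554523) and Glud1 (10661486 to 10695557) are both on chromosome 16. Counts are over whole genes, so no exon or UTR is told apart. By the strands of this table, Ass1 overlaps Nup214 on the opposite strand, whose summed count was 2.07% of that of Ass1, and Glud1 overlaps Fam35a on the opposite strand, at 3.11%. The table puts Ass1 on the minus strand, whereas the promoter source used below puts it on the plus strand. Where that source puts Nup214 was not looked up. Slc25a13 shares its span with 10 other annotated rows, the largest being Samd9l at 3.82% of its count, and Slc25a15 with 2 rows that each hold under 1% of its count. Whether reads were counted by strand is not given in the sources used here, so some reads of these 4 genes could belong to the partner.

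Promoter sequences from RefSeq (build GRCr8, 250 bases before to 50 after the start) were held for 9 of the 10 genes, and Arg1 was the exception. Cps1 and Slc25a15 transcripts were lowest of their group in the libraries with low fibrinogen transcripts, and those of Otc and Slc25a13 were not. The promoters of these genes are printed here. Each runs 5′ to 3′ along its gene, from chr9:76063613-76063912 on the plus strand for Cps1, chr16:76336620-76336919 on the plus strand for Slc25a15, chrX:15202424-15202723 on the minus strand for Otc and chr4:35328311-35328610 on the minus strand for Slc25a13. Capitals mark matches, on either strand, to any of 4 motifs searched: TGACG (the core of the cAMP response element), CCAAT (the CCAAT box), TATAAA (the TATA box) and CAAAGTNCA (a core of the HNF4 site).
Cps1: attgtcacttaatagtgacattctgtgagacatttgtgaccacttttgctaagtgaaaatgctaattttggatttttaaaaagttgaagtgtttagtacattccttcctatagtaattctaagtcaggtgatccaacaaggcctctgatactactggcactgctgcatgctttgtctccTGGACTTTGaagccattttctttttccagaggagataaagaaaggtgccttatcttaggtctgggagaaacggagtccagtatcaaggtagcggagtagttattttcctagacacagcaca
Slc25a15: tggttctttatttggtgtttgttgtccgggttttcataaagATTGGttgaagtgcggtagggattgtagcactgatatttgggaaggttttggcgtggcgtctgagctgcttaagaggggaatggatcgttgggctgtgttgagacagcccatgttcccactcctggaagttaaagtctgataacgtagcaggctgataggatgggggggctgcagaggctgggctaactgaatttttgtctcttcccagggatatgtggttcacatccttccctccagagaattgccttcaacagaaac
Otc: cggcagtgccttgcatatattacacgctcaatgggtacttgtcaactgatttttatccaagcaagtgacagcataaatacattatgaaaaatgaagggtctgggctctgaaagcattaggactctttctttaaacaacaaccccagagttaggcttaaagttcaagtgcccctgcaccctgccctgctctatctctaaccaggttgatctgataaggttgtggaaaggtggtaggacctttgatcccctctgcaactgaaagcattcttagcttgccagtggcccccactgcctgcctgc
Slc25a13: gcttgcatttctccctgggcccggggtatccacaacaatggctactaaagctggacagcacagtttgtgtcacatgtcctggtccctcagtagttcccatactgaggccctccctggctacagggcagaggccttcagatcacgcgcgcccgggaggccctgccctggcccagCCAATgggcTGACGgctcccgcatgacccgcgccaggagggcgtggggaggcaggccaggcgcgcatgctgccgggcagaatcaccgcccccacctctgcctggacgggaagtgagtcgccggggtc

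Cps1 held 1 match to CAAAGTNCA, on the other strand, 71 bases before the start, and 1.24% of the 33469 promoters of the same length held this motif. Slc25a15 held CCAAT on the other strand 209 bases before the start, and Slc25a13 held CCAAT at 77 and TGACG at 68 bases before it. CCAAT occurred in 37.5% and TGACG in 21.2% of all promoters. Otc, Asl and Glud1 held none of the 4 motifs in this window. In the promoters not printed, Ass1 held TATAAA on the other strand (14.2% of all promoters), Nags held TGACG, and the first of the 2 Gls2 entries held TGACG at 2 places and CCAAT at 1. No motif match overlapped another, and GC content ranged from 39.3% in Cps1 to 78.0% in Glud1. Cps1, Ass1, Asl and Slc25a15 were each the lowest of their own group in the libraries with low fibrinogen transcripts. They shared none of the 4 motifs in this window, and other motifs were not searched.

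Per length, the genes formed an abundant and a scarce group. By the deposited RPKM (reads scaled to gene length and library total), Ass1 was highest at a median of 846 over the 12 libraries (lowest 287, highest 1389), followed by Cps1 at 592, Arg1 at 478, Glud1 at 455 and Asl at 344. Otc stood well below these at 108 (60.5 to 155), and Slc25a13 at 61.7, Slc25a15 at 44.5, Gls2 at 34.1 and Nags at 29.8 closed the order. Ass1 was above Cps1 in 10 of 12 libraries, Cps1 above Arg1 in all 12, and Arg1 above Glud1 in 7. Glud1 was above Asl in 11 of 12, Asl above Otc in 12 and Otc above Slc25a13 in 12. Slc25a13 was above Slc25a15 in 10, Slc25a15 above Gls2 in 8 and Gls2 above Nags in 7. The neighbours Arg1 and Glud1, Slc25a15 and Gls2, and Gls2 and Nags therefore could not be ordered beyond their spread. Together the 10 genes took 0.537% of all counts in HFD replicate 3 and 1.22% in Control+SAMC replicate 2, the lowest and highest of the 12.

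Of the mitochondrial steps, Nags makes N-acetylglutamate, the activator without which Cps1 does not work. Nags was at 90.3, 95.2 and 83.3 CPM in the HFD+SAMC libraries and at 78.3, 74.8 and 82.4 CPM in the HFD libraries. It was at 115, 97.3 and 83.5 CPM with Control+SAMC and at 71.9, 114 and 92.5 CPM in Control. All 3 HFD libraries lay below all HFD+SAMC libraries and below all Control+SAMC libraries, while the Control libraries spanned nearly the whole range. Cps1 makes carbamoyl phosphate from ammonia and is the entry step of the cycle. Its libraries held 3512, 3235 and 2944 CPM in HFD+SAMC and 2285, 1690.0 and 4962 CPM in HFD. With Control+SAMC it was at 3062, 5750.4 and 4438 CPM, and in Control at 3573, 3059 and 4415 CPM. HFD replicates 2 and 3 were the lowest of the 12 and HFD replicate 4 the second highest, so the HFD group overlapped every other group.

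Otc joins carbamoyl phosphate to ornithine. It was at 182, 125 and 159 CPM in HFD+SAMC libraries and at 225, 126 and 148 CPM in HFD libraries. In Control+SAMC it was at 157, 206 and 133 CPM and in Control at 95.03, 247 and 198 CPM. The lowest and the highest of the 12 values were both Control libraries, and all groups overlapped. Slc25a15 is the carrier that exchanges ornithine for citrulline across the inner mitochondrial membrane. It was at 344, 316 and 251 CPM in HFD+SAMC and at 175, 181 and 439 CPM in HFD. Control+SAMC libraries held 168, 421 and 437 CPM and Control libraries 327, 225 and 477 CPM. HFD replicates 2 and 3 and Control+SAMC replicate 1 were the lowest, and the groups overlapped.

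In the cytosol Ass1 condenses citrulline with aspartate. It was at 1232, 1315 and 997 CPM in HFD+SAMC libraries and at 646, 409.7 and 1603 CPM in HFD libraries. Control+SAMC libraries held 1396, 2559 and 1454 CPM and Control libraries 1540.3, 1114 and 1608 CPM. Ass1 varied most of the 10 genes, 6.25-fold between HFD replicate 3 and Control+SAMC replicate 2, and all HFD+SAMC libraries were below all Control+SAMC libraries. Asl splits the product into arginine and fumarate. It was at 688, 747 and 623 CPM in HFD+SAMC and at 407, 539 and 1003 CPM in HFD. It was at 504, 809 and 824 CPM in Control+SAMC and at 949, 492 and 867 CPM in Control. The HFD group held both the lowest and the highest value. Arg1 splits arginine into urea and ornithine and closes the cycle. It was at 738, 616 and 667 CPM in HFD+SAMC and at 482, 316 and 947 CPM in HFD. It was at 721, 1075 and 859 CPM in Control+SAMC and at 622, 522 and 826 CPM in Control. As with Cps1, 2 HFD libraries were lowest and the other HFD library was the second highest.

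Slc25a13, also called citrin, exports the aspartate that Ass1 uses from mitochondria. It was at 235, 182 and 178 CPM in HFD+SAMC and at 224, 181 and 171 CPM in HFD. It was at 240.5, 199 and 223 CPM in Control+SAMC and at 182, 184 and 159 CPM in Control. Control+SAMC lay wholly above Control, and over 12 libraries this was the steadiest of the 10 genes, with a 1.51-fold range. Gls2, the liver glutaminase, releases ammonia from glutamine beside the cycle. It was at 98.3, 91.4 and 77.3 CPM in HFD+SAMC and at 81.6, 68.1 and 129 CPM in HFD. It was at 111, 206 and 98.5 CPM in Control+SAMC and at 105, 95.6 and 111 CPM in Control. Control+SAMC replicate 2 stood far above the rest, and HFD+SAMC lay wholly below Control+SAMC. Glud1, glutamate dehydrogenase, frees or fixes ammonia at glutamate. It was at 1714, 1517 and 1478 CPM in HFD+SAMC and at 1112, 981 and 1961 CPM in HFD. It was at 1525, 2121 and 1446 CPM in Control+SAMC and at 1388, 1490.0 and 1725 CPM in Control. HFD replicates 2 and 3 were again the lowest and HFD replicate 4 the second highest.

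**Figure D1:**
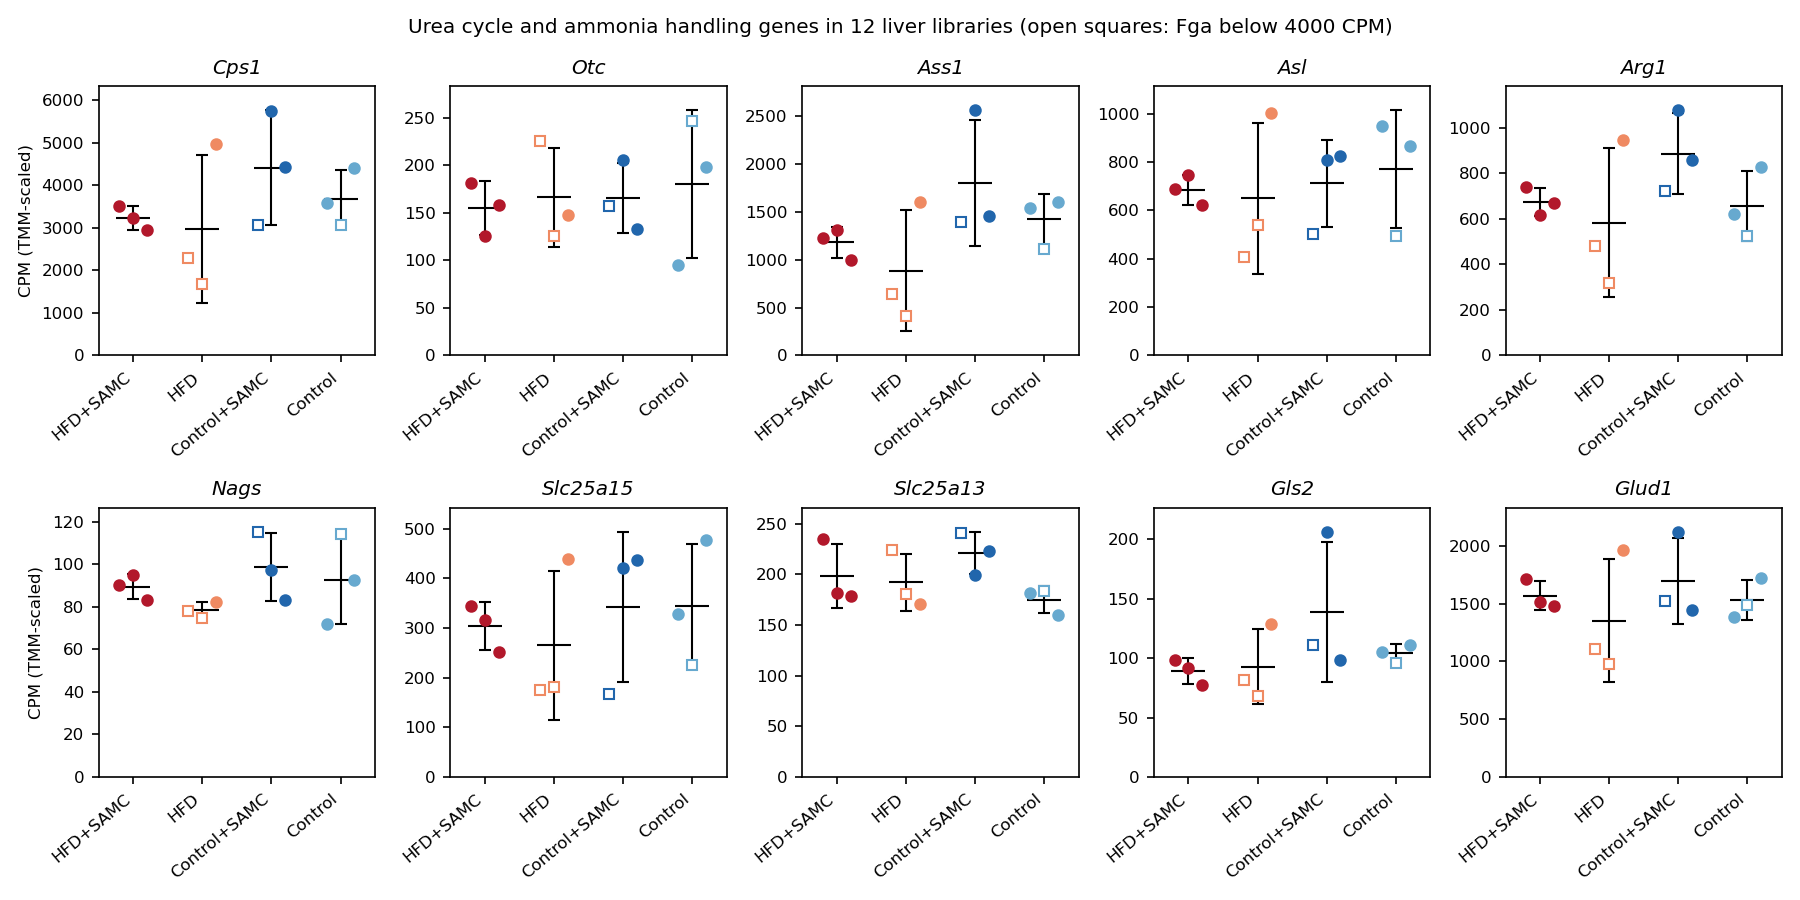
CPM (TMM-scaled) of each of the 10 genes in every library, by group, with the group mean and SD (n = 3) in black and the 4 libraries with Fga below 4000 CPM as open squares. In Cps1, Ass1, Arg1 and Glud1 the HFD group splits into 2 low libraries and 1 high one, as in Cps1 at 2285 and 1690.0 CPM against 4962 CPM, while Slc25a13 and Nags stay within narrow ranges.

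The libraries of one group differed among themselves in a way several of the genes shared. In the 4 libraries with low fibrinogen transcripts, Cps1, Ass1, Asl, Arg1 and Slc25a15 were the lowest of their own group in each of the 3 groups that hold such a library. Asl was at 407 to 539 CPM in these 4 libraries and at 623 to 1003 CPM in the other 8, with no overlap. Slc25a15 was at 168 to 225 CPM in the 4 and at 251 to 477 CPM in the other 8, again without overlap. Gls2 was lowest in 2 of the 3 groups, Nags and Glud1 in 1, and Otc and Slc25a13 in none. Otc was even the highest of its group in HFD replicate 2 and in Control replicate 2. These libraries were set apart by Fga and not by any of the 10 genes, but that they stand apart was known from earlier results, so no test is given. How many of all genes are lowest in these libraries was not counted. HFD holds 2 of the 4 libraries, Control+SAMC and Control 1 each, and HFD+SAMC none.

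Expressed as log2 CPM minus the mean of the gene over the 12 libraries, the SD was 0.68 for Ass1, 0.56 for Slc25a15, 0.49 for Cps1, 0.48 for Arg1, 0.42 for Asl, 0.41 for Gls2 and 0.40 for Otc. It was 0.31 for Glud1, 0.22 for Nags and 0.20 for Slc25a13. The mean of Cps1, Otc, Ass1, Asl and Arg1, the 5 cycle enzymes, ran from -0.87 in HFD replicate 3 and -0.44 in HFD replicate 2 to 0.38 in HFD replicate 4 and 0.63 in Control+SAMC replicate 2. Cps1 kept closest to this mean, with a root mean square difference of 0.11 log2 units, and Otc, itself one of the 5, departed most of the 10 genes, at 0.49. Cps1, Ass1, Asl and Arg1 are part of the mean too, so their closeness to it is partly built in. Arg1 and Glud1 were both at 0.14, Gls2 at 0.20 and Asl, Ass1 and Slc25a15 at 0.30 to 0.31, while Nags was at 0.37 and Slc25a13 at 0.43. These last 2 had the smallest SDs, and a gene that hardly varies differs from a varying mean for that alone. Among 1011 other well expressed genes whose spread was at least 0.75 of that of the mean, those near it over the 12 libraries included Cbs at 0.16, Dbt at 0.17 and Slc38a4 at 0.19. Each of these values is a description over libraries that share depth, scaling and group.

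**Figure D2:**
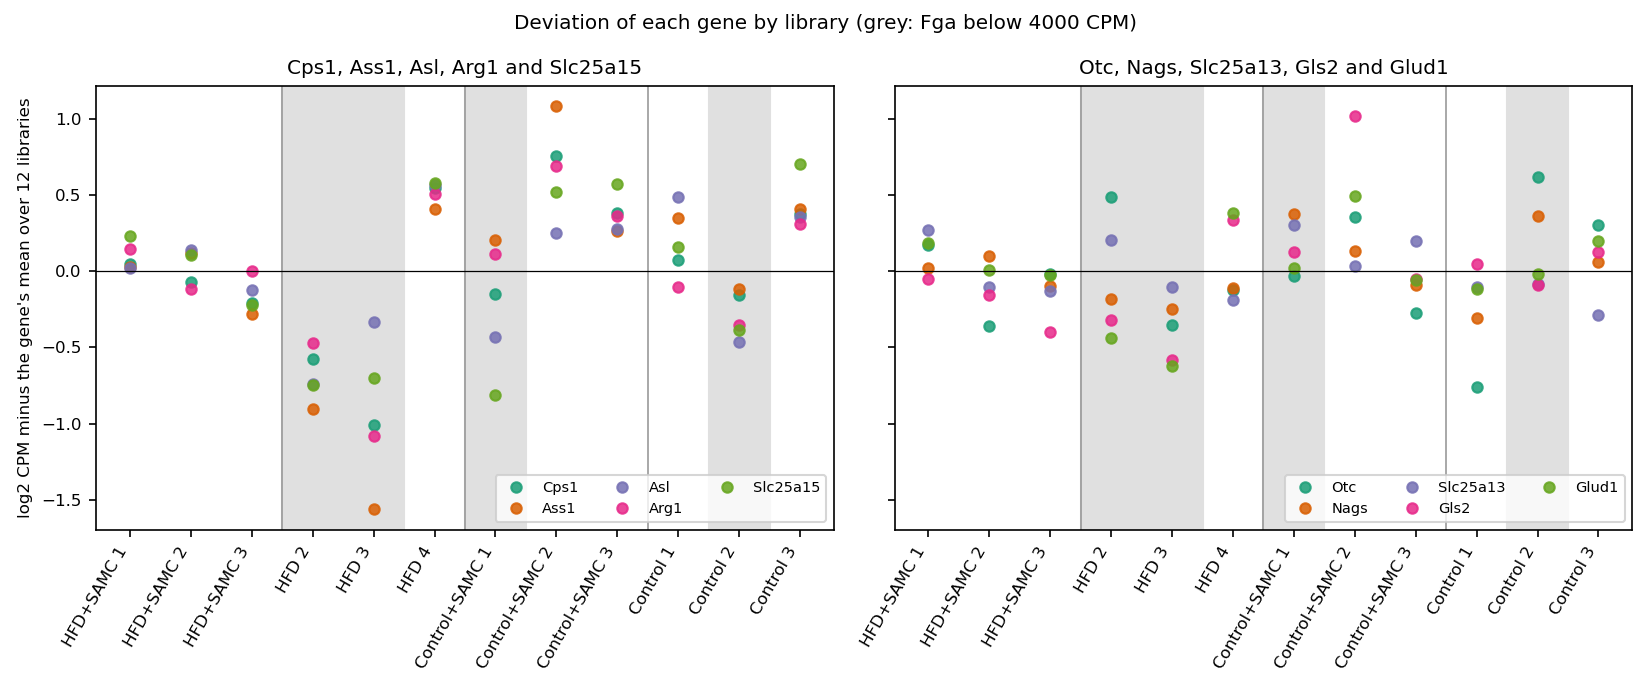
Log2 CPM of each gene minus its mean over the 12 libraries, by library, with the 4 libraries of Fga below 4000 CPM shaded grey. Cps1, Ass1, Asl, Arg1 and Slc25a15 (left) dip together in HFD replicates 2 and 3 and sit high in HFD replicate 4. Otc and Slc25a13 (right) lie above 0 in HFD replicate 2 and below 0 in HFD replicate 3. In the shaded Control+SAMC replicate 1, Ass1 (0.21) and Arg1 (0.11) lie above 0.

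The first comparison asked what the high fat diet alone did to the cycle. Between HFD and Control 9 of the 10 genes were lower by their fitted log2 fold change and Slc25a13 was higher, but none passed the threshold, and with library totals in place of TMM 7 were higher. That scaling moved the median of all tested genes to 0.29, and relative to it Slc25a13 was again the 1 gene above. The median over the 10 genes was -0.21, beside 0.00 over all 15916 tested genes, of which 49.3% were above 0. Ass1 had the largest difference, at 886 ± 632 CPM in HFD and 1421 ± 267 CPM in Control (SD, n = 3 each), a log2 fold change of -0.68 ± 0.42 (SE) with an adjusted p of 0.605 by edgeR's quasi-likelihood test. Slc25a15 followed at -0.37 ± 0.44 and Cps1 at -0.31 ± 0.35. Cps1 averaged 2979 ± 1743 CPM in HFD against 3683 ± 685 CPM in Control, so the SD within HFD exceeded the difference. Asl was at -0.24 ± 0.33, Nags at -0.24 ± 0.17, Glud1 at -0.18 ± 0.25, Arg1 at -0.18 ± 0.33, Gls2 at -0.17 ± 0.28, Otc at -0.12 ± 0.33 and Slc25a13 at 0.13 ± 0.15.

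With an adjusted p below 0.05, edgeR called 0 of the 10 genes between HFD and Control, where the background was 0.145% of all genes tested. At an unadjusted p below 0.05 it also found 0 (background 10.7%), as did DESeq2 at both thresholds. None of the 10 separated HFD from Control without overlap, against a background of 14.7%. The 95% intervals, unadjusted, ran from -1.61 to 0.25 for Ass1, and from -0.20 to 0.47 for Slc25a13, which had the narrowest.

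The size of these differences moved with single libraries, while the median stayed below 0 with any 1 left out. Without HFD replicate 4 the median was -0.63, with Ass1 at -1.43 (adjusted p 0.107 by edgeR) and 6 genes at an unadjusted p below 0.05. The share of all genes at that unadjusted threshold was not counted in this fit, so the 6 cannot be set against a background. Without HFD replicate 3, 5 genes were higher and 5 lower, with a median of -0.01. Without the 4 libraries with low fibrinogen transcripts, which leaves 1 HFD library, all 10 were higher, with a median of 0.13. Summed markers of Kupffer cells and macrophages were at 736 to 863 CPM in HFD and 473 to 713 CPM in Control. All 9 were higher by fitted fold change, with 0 past the threshold and 4 at an unadjusted p below 0.05 by edgeR. The 8 hepatocyte markers summed to 133243 to 173679 CPM in HFD and 155954 to 370219 CPM in Control. Of these 7 were lower, with 0 past the threshold and 4 at an unadjusted p below 0.05 (background 10.7%). Periportal markers went mostly the other way, with 5 of 8 higher (median 0.06), and 4 of 9 pericentral ones were higher (median -0.18). EdgeR called 0 of both, with 2 and 3 at an unadjusted p below 0.05. The part of these marker shifts in the result was not tested, and fewer cells of a type cannot be told apart from less RNA per cell in bulk liver.

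**Figure D3:**
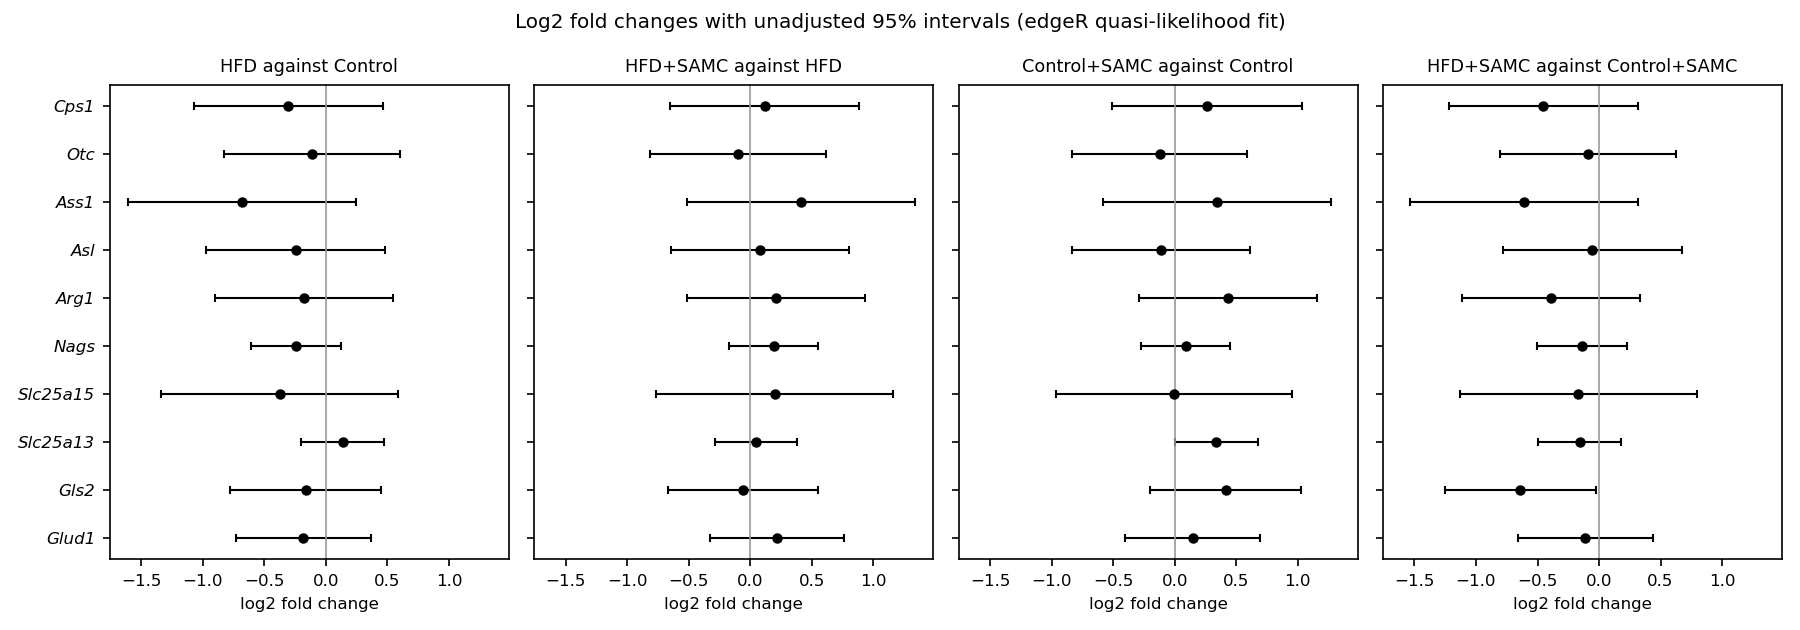
Log2 fold changes of the 10 genes in 4 comparisons of groups, as points with unadjusted 95% intervals from the edgeR fit. Nearly all intervals include 0; the exceptions are Slc25a13 in Control+SAMC against Control and Gls2 in HFD+SAMC against Control+SAMC, and neither passed after adjustment over all genes.

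The second comparison asked what SAMC did on the high fat diet. Between HFD+SAMC and HFD 8 of the 10 genes were higher and 2, Otc at -0.10 ± 0.33 and Gls2 at -0.06 ± 0.28, were lower, with none past the threshold. The median was 0.15, beside 0.00 over all tested genes, of which 50.5% were above 0. Ass1 averaged 1181 ± 165 CPM in HFD+SAMC and 886 ± 632 CPM in HFD (SD, n = 3 each), a log2 fold change of 0.41 ± 0.42. Glud1 was at 0.22 ± 0.25, Arg1 at 0.21 ± 0.33, Slc25a15 at 0.20 ± 0.44 and Cps1 at 0.12 ± 0.35. Asl was at 0.08 ± 0.33 and Slc25a13 at 0.05 ± 0.15. Nags, at 89.6 ± 6.00 CPM in HFD+SAMC and 78.5 ± 3.84 CPM in HFD, was the 1 gene whose groups did not overlap, with a log2 fold change of 0.19 ± 0.17 and an adjusted p of 0.726 by edgeR.

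EdgeR called 0 of the 10 genes between HFD+SAMC and HFD at an adjusted p below 0.05 (background 0.0503%) and 0 at an unadjusted p below 0.05 (background 10.6%), and DESeq2 found 0 at both. Groups that did not overlap made up 18.8% of all tested genes, so 1 of 10 is near the background. The spread within a group differed more than the means did: Cps1 averaged 3230.1 ± 284 CPM in HFD+SAMC and 2979 ± 1743 CPM in HFD, and for 7 genes (Cps1, Ass1, Asl, Arg1, Slc25a15, Gls2 and Glud1) the HFD+SAMC libraries lay within the range of the HFD libraries. Without HFD replicate 4 the median was 0.56, without HFD replicate 3 it was -0.02, and without the 4 libraries with low fibrinogen transcripts it was -0.46, with 7 genes lower. Without the library that held skeletal muscle transcripts, HFD+SAMC replicate 3, it was 0.20. Of the cell type markers, 8 of 9 pericentral ones were higher (median 0.37). Lower were 8 of 9 Kupffer cell and macrophage markers (median -0.13) and 6 of 8 periportal ones (-0.28). EdgeR called 0 of these markers, with 4, 2 and 2 at an unadjusted p below 0.05. Their part in the result was not tested.

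The third comparison was SAMC on the normal diet. Between Control+SAMC and Control 7 of the 10 genes were higher and 3 lower (9 and 1 with library totals in place of TMM, but 7 and 3 relative to the median of 0.12 over all genes that this scaling gave), with a median of 0.20 beside -0.01 over all tested genes (48.5% above 0), and none passed the threshold. Slc25a13 averaged 221 ± 20.8 CPM in Control+SAMC and 175 ± 13.5 CPM in Control (SD, n = 3 each), without overlap. Its log2 fold change was 0.34 ± 0.15, with an unadjusted p of 0.0492 and an adjusted p of 0.510 by edgeR. Arg1 was at 0.43 ± 0.33, Gls2 at 0.41 ± 0.28, Ass1 at 0.34 ± 0.42 and Cps1 at 0.26 ± 0.35, all higher in fitted value with overlapping groups. Glud1 was at 0.15 ± 0.25 and Nags at 0.09 ± 0.17. Otc at -0.12 ± 0.33, Asl at -0.11 ± 0.33 and Slc25a15 at -0.01 ± 0.44 were lower.

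The edgeR calls numbered 0 of 10 at an adjusted p below 0.05 (background 0.119%) and 1 at an unadjusted p below 0.05 (background 9.78%), which was Slc25a13, and DESeq2 gave the same 2 counts. The 1 gene without overlap compares with a background of 13.5%. Control+SAMC replicate 2 was the highest library of its group for Cps1, Otc, Ass1, Arg1, Gls2 and Glud1. Without it the 10 genes split into 5 higher and 5 lower, with a median of 0.00, while Slc25a13 was at 0.40. Over the removal of each library in turn Slc25a13 ranged from 0.27 to 0.40. Lower were 7 of 8 hepatocyte markers (median -0.25), 6 of 8 periportal ones (-0.09) and 5 of 9 pericentral ones (-0.01). Higher were 5 of 9 Kupffer cell and macrophage markers (0.01) and 3 of 4 cholangiocyte markers (0.74). EdgeR called 0 of these markers, with 2, 0, 1, 0 and 2 at an unadjusted p below 0.05. Their part in the result was not tested.

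The fourth comparison was the diet in animals given SAMC. All 10 genes were lower in HFD+SAMC than in Control+SAMC by fitted value (7 of 10 with library totals in place of TMM, and all 10 relative to the median of 0.15 that this scaling gave over all genes), with a median of -0.16 beside 0.01 over all tested genes (51.1% above 0), and none passed the threshold. Gls2 averaged 89.0 ± 10.7 CPM in HFD+SAMC and 139 ± 58.9 CPM in Control+SAMC (SD, n = 3 each), without overlap, a log2 fold change of -0.64 ± 0.28 with an unadjusted p of 0.0426 and an adjusted p of 0.439 by edgeR. Ass1, at 1181 ± 165 CPM in HFD+SAMC and 1803 ± 656 CPM in Control+SAMC, also did not overlap, at -0.61 ± 0.42 with an adjusted p of 0.659 by edgeR. Cps1 was at -0.45 ± 0.35 and Arg1 at -0.39 ± 0.33. The other 6 lay between -0.17 for Slc25a15 and -0.05 for Asl. All 8 markers of periportal hepatocytes were also lower in fitted value, with a median of -0.28. So were all 3 erythroid markers, with a median of -1.04. EdgeR called 0 of these 11, with 2 at an unadjusted p below 0.05 (background 10.9%). Of hepatocyte markers 5 of 8 were lower (median -0.24). Higher were 5 of 9 pericentral markers (median 0.42), 6 of 9 Kupffer cell and macrophage markers (0.20) and 4 of 5 stellate cell markers (1.02). The part of these markers in the result was not tested.

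Here edgeR called 0 of 10 genes at an adjusted p below 0.05 (background 0.0628%) and 1, Gls2, at an unadjusted p below 0.05 (background 10.9%), and DESeq2 gave the same counts. Of the 10 genes 2 did not overlap, against 17.8% of all tested genes. Gls2 rests largely on Control+SAMC replicate 2, without which its log2 fold change was -0.24, and Ass1 was then at -0.27. Without that library 4 of the 10 genes were higher. Without the 4 libraries with low fibrinogen transcripts the median was -0.37, with all 10 lower.

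Averaged over SAMC, the diet effect was negative for all 10 genes (5 of 10 with library totals in place of TMM, and all 10 relative to the median of 0.22 over all genes that this scaling gave), with a median of -0.23, while 50.1% of all genes were above 0. The median was -0.47 without HFD replicate 4, with 5 genes at an unadjusted p below 0.05 (share of all genes not counted). It was -0.15 without HFD replicate 3. Without the 4 libraries with low fibrinogen transcripts it was -0.06, with 9 genes lower. Ass1 was at -0.65 ± 0.30 (adjusted p 0.376 by edgeR) and Gls2 at -0.40 ± 0.20 (adjusted p 0.406 by edgeR), while Slc25a13 was at -0.01 ± 0.11. EdgeR called 0 of 10 at an adjusted p below 0.05 (background 0.421%) and 0 at an unadjusted p below 0.05 (background 13.6%). By DESeq2 0 were called and 2 found unadjusted, where its share of all genes was not counted. Averaged over diet, the SAMC effect was positive for 8 of 10, the exceptions being Otc and Asl. With library totals it was positive for 9 of 10, but again for 8 relative to the median of 0.05 over all genes that this scaling gave. With TMM the median of the 10 was 0.18, while 49.2% of all genes were above 0. Without the 4 libraries with low fibrinogen transcripts 3 were higher and 7 lower, with a median of -0.04. With 1 library left out the median was 0.07 without Control+SAMC replicate 2 and 0.09 without HFD replicate 3. It was 0.35 without HFD replicate 4, where 4 genes had an unadjusted p below 0.05 (share of all genes not counted). Slc25a13 was at 0.19 ± 0.11 and Ass1 at 0.38 ± 0.30, and edgeR and DESeq2 both found 0 at either threshold (backgrounds 0.22% adjusted and 12.4% unadjusted). The interaction, which coincides with the 2 sets of RPKM lengths, ranged from -0.47 for Gls2 to 0.20 for Slc25a15, again with 0 genes at either threshold by both tools (backgrounds 0.145% adjusted and 7.41% unadjusted). Its fitted value was above 0 for 6 of the 10 genes and for 51.6% of all (2 of 10 with library totals, which moved the median of all genes to -0.14, and 5 of 10 relative to it). It was above 0 for 2 of 10 without HFD replicate 2, HFD replicate 3, Control+SAMC replicate 1, Control+SAMC replicate 3 or Control replicate 3, each left out alone. Without the 4 libraries with low fibrinogen transcripts it was above 0 for 0 of 10, with a median of -0.56.

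Comparisons that stay within 1 set of RPKM lengths were added after the data were seen and differ in both diet and SAMC. Between HFD+SAMC and Control 7 genes were lower and 3 higher (1 and 9 with library totals, but again 7 and 3 relative to the median of 0.27 over all genes that this scaling gave), with a median of -0.17, and 0 were called by either tool or reached an unadjusted p below 0.05 (backgrounds 0.176% adjusted and 12.6% unadjusted, with 49.7% of all genes above 0), with Ass1 at -0.27 ± 0.42 and Arg1 at 0.04 ± 0.33. Between HFD and Control+SAMC 9 genes were lower and Otc, at 0.01 ± 0.33, was higher (8 and 2 with library totals, but again 9 and 1 relative to the median of 0.16 over all genes that this scaling gave), with a median of -0.35, while 50.2% of all genes were above 0. EdgeR called 0 of 10 there (background 0.364%) and found 1 at an unadjusted p below 0.05 (background 13.0%), Ass1 at -1.02 ± 0.43 with an adjusted p of 0.338. DESeq2 called 0 and found 2 unadjusted, where its share of all genes was not counted. Nags was the 1 gene without overlap, against a background of 17.1%, at 78.3, 74.8 and 82.4 CPM in HFD libraries and 115, 97.3 and 83.5 CPM in Control+SAMC libraries. Without HFD replicate 4, Ass1 was at -1.77 with an adjusted p of 0.0497 by edgeR, and over the alternatives tried its adjusted p ranged up to 0.905. This was the 1 setting in which any of the 10 genes was called.

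The genes around the cycle were described from 4 lists. The list of glutamine handling and transport named 15 genes, of which 14 were tested. Rhbg, an ammonia channel of pericentral hepatocytes, rose with the diet averaged over SAMC, by 1.59 ± 0.25 on the log2 scale (adjusted p 0.0187 by edgeR). It was the 1 gene of the 14 called in that contrast, where 0.421% of all genes were called. Rhbg was at 6.02, 9.50 and 6.99 CPM in HFD+SAMC and 9.51, 6.02 and 5.89 CPM in HFD libraries. It was at 4.81, 3.11 and 1.53 CPM in Control+SAMC and 2.00, 1.81 and 1.82 CPM in Control libraries. Every library on the high fat diet was above every library on the normal diet. How many of all genes separate the diets in this way was not counted. Against Control alone, HFD was at 1.93 ± 0.36 with an adjusted p of 0.0746 by edgeR. The diet average missed the threshold without HFD+SAMC replicate 2, HFD replicate 2, Control+SAMC replicate 2, Control replicate 3 or the 4 libraries with low fibrinogen transcripts, with adjusted p-values of 0.0522 to 0.0655 in these fits by edgeR.

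Slc7a2, a carrier of arginine and other cationic amino acids, was lower in HFD+SAMC than in Control, at -1.21 ± 0.21 (adjusted p 0.0473 by edgeR). It was the 1 gene of the list called in that contrast, where 0.176% of all genes were called. That contrast was added after the data were seen and differs in both diet and SAMC. It was at 136, 132 and 109 CPM in HFD+SAMC libraries and 258, 187 and 261 CPM in HFD libraries. It was at 211, 351 and 288 CPM in Control+SAMC libraries and 257, 339 and 275 CPM in Control libraries. All HFD+SAMC libraries were below the other 9, and the share of all genes with such a split was not counted. Relative to Control+SAMC the log2 fold change was -1.17 ± 0.21 and relative to HFD -0.90 ± 0.20, with adjusted p-values of 0.0670 and 0.194 by edgeR. The call against Control was missed in 7 of the 12 fits that left out 1 library, among them each of the 3 without an HFD+SAMC library, with adjusted p-values of up to 0.176 by edgeR.

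Glul, glutamine synthetase, was named after its values were seen. It was at 642, 781 and 828 CPM in HFD+SAMC libraries and 438, 431 and 462 CPM in HFD libraries. It was at 690.2, 590.4 and 283 CPM in Control+SAMC libraries and 272, 453 and 379.9 CPM in Control libraries. HFD+SAMC lay above HFD and above Control without overlap, at 0.76 ± 0.28 against HFD with an adjusted p of 0.383 by edgeR. Of all genes 18.8% did not overlap between HFD+SAMC and HFD, and the share against Control was not counted. Aqp9, a channel for glycerol and urea, was at 0.58 ± 0.17 in HFD+SAMC against HFD and 0.43 ± 0.17 in Control+SAMC against Control. Neither Glul nor Aqp9 passed the threshold by edgeR. DESeq2 called Glul in HFD+SAMC against Control, and Aqp9 in SAMC averaged over diet and in HFD against Control+SAMC. Of all 15916 genes it called 455, 436 and 556 in these contrasts. Slc38a3, a glutamine carrier also named after its values were seen, was at 834, 971 and 834 CPM in HFD+SAMC libraries and 686, 579 and 758 CPM in HFD libraries. It was at 1076, 1057 and 1031 CPM in Control+SAMC libraries and 899.9, 1037 and 864 CPM in Control libraries. The 3 HFD libraries were below the other 9, at -0.47 ± 0.15 against Control with an adjusted p of 0.289 by edgeR. Over all genes the share with such a split was not counted. DESeq2 called Slc38a3 in HFD against Control, in the diet averaged over SAMC and in HFD against Control+SAMC. In HFD against Control 6 of the 14 were higher and 8 lower, with a median of -0.24. In HFD+SAMC against HFD the split was also 6 and 8, with a median of -0.03. In Control+SAMC against Control it was 9 and 5, with a median of 0.03. In HFD+SAMC against Control+SAMC it was 4 and 10, with a median of -0.18, and edgeR called no gene of the list in these 4 comparisons, with 3, 5, 1 and 3 at an unadjusted p below 0.05. The backgrounds at that unadjusted threshold were 10.7%, 10.6%, 9.78% and 10.9% of all genes in the same order. DESeq2 called 2 (Rhbg and Slc38a3), 1 (Slc7a2), 0 and 2 (Rhbg and Slc7a2) of the 14. Of all 15916 genes it called 315, 249, 219 and 272.

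**Figure D4:**
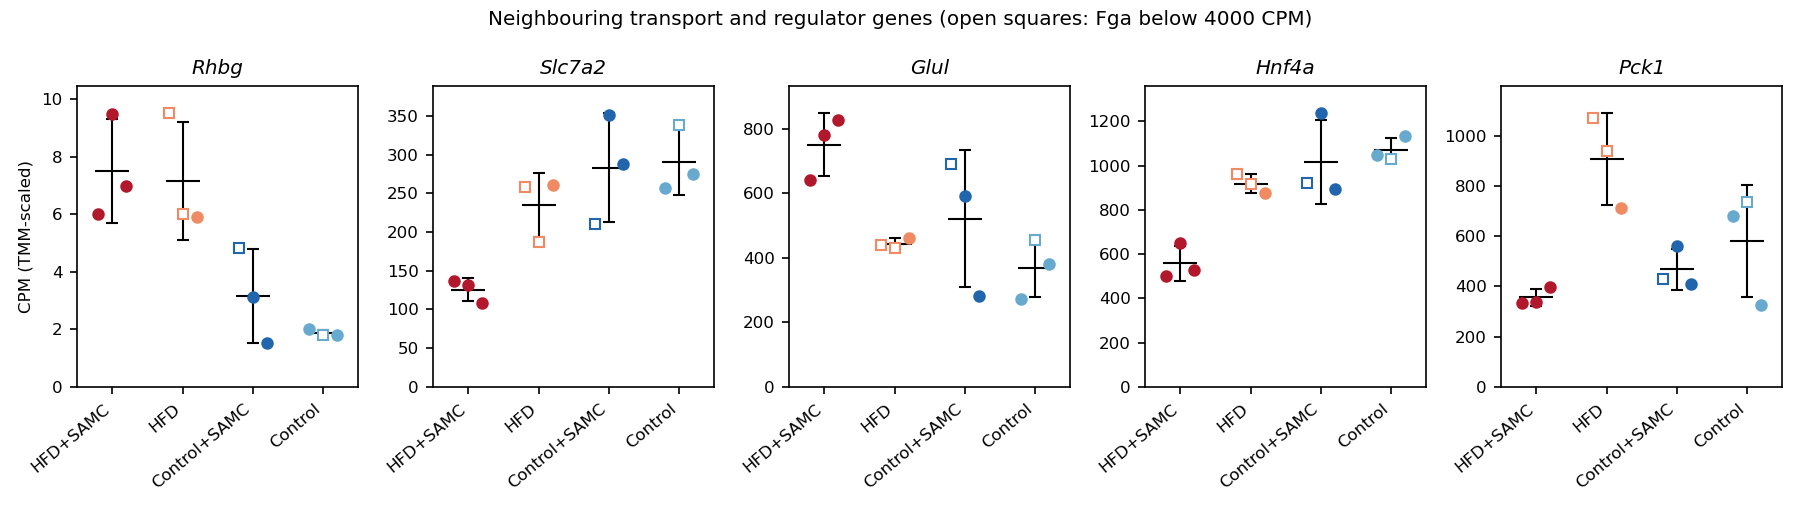
CPM (TMM-scaled) in every library of Rhbg, Slc7a2, Glul, Hnf4a and Pck1, with the group mean and SD (n = 3) in black and libraries of Fga below 4000 CPM as open squares. Rhbg was higher in all 6 high fat diet libraries, while in Slc7a2 and Hnf4a the 3 HFD+SAMC libraries lie below the other 9; all HFD+SAMC values of Glul lie above HFD and those of Pck1 below HFD.

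The list of nitrogen exchange held 12 enzymes that move amino groups or supply the aspartate of the cycle, and edgeR called 0 of them in any comparison, with 1, 1, 0 and 2 at an unadjusted p below 0.05 in the 4 comparisons above, where DESeq2 called 0, 0, 0 and 1 (Mdh1). The shares of all genes at that threshold were 10.7%, 10.6%, 9.78% and 10.9%. By DESeq2, 315, 249, 219 and 272 of all genes were called. In HFD against Control 4 were higher and 8 lower, with a median of -0.21, and Mdh1, the cytosolic malate dehydrogenase, was at -0.37 ± 0.15. In HFD+SAMC against HFD 7 were higher and 5 lower, in Control+SAMC against Control 9 were higher and 3 lower, and in HFD+SAMC against Control+SAMC 3 were higher and 9 lower. Mdh1 was at -0.60 ± 0.15 in the last of these and did not overlap there, which held for 17.8% of all genes. Amt, of the glycine cleavage system, was at 0.39 ± 0.17 in HFD+SAMC against HFD, 0.28 ± 0.17 in Control+SAMC against Control and 0.39 ± 0.17 in HFD+SAMC against Control+SAMC. Tat, tyrosine aminotransferase, was at -0.996 ± 0.57 in HFD against Control and -0.95 ± 0.57 in Control+SAMC against Control. It was at 358, 301 and 386 CPM in HFD+SAMC, 735, 484 and 282 CPM in HFD, 796, 441 and 317 CPM in Control+SAMC and 456, 1994 and 544 CPM in Control libraries. In each of the 3 groups that hold libraries with low fibrinogen transcripts, those libraries had the highest Tat of their group, where the cycle enzymes other than Otc had their lowest values. Hal, which frees ammonia from histidine, was at -0.63 ± 0.39 in HFD+SAMC against HFD.

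Got1, the cytosolic aspartate aminotransferase, was picked out after its values were seen. Its libraries held 222, 171 and 180.0 CPM in HFD+SAMC and 51.8, 42.0 and 270.1 CPM in HFD. They held 99.2, 426 and 293 CPM in Control+SAMC and 275, 72.1 and 368 CPM in Control. The 4 libraries with low fibrinogen transcripts were the lowest 4 of the 12, as in Slc25a15 and Asl, and no test is given. The share of all genes with this split was not counted.

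Of the branches of arginine and ornithine, 13 genes were listed and 10 tested, and edgeR called none, with 0, 4, 1 and 0 at an unadjusted p below 0.05 in the 4 comparisons (10.7%, 10.6%, 9.78% and 10.9% of all genes) and none called by DESeq2. In HFD against Control 5 were higher and 5 lower, with a median of 0.01, and in HFD+SAMC against HFD 7 were higher and 3 lower, with a median of 0.28. In Control+SAMC against Control and in HFD+SAMC against Control+SAMC 5 were higher and 5 lower. Pycr1, which makes proline, was at 0.95 ± 0.33 in HFD+SAMC against HFD and 0.53 ± 0.33 against Control+SAMC. Oat, which turns ornithine into glutamate semialdehyde, was at -0.73 ± 0.38 in HFD against Control. Gatm, of creatine synthesis, was at -0.62 ± 0.24 in HFD+SAMC against HFD and -0.50 ± 0.25 in Control+SAMC against Control. Ddah1, which clears methylated arginine, was at 0.46 ± 0.17 in Control+SAMC against Control.

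The list of 15 regulators and hormone response genes held no call by edgeR either, with 3, 4, 0 and 1 at an unadjusted p below 0.05 in the 4 comparisons, where DESeq2 called 0, 2, 0 and 1. Over all genes 10.7%, 10.6%, 9.78% and 10.9% had an unadjusted p below 0.05, and DESeq2 called 315, 249, 219 and 272. Hnf4a, a nuclear receptor that maintains hepatocyte genes, was at 499.6, 649 and 529.8 CPM in HFD+SAMC and 961, 918 and 874 CPM in HFD libraries. It was at 923, 1236 and 893 CPM in Control+SAMC and 1047, 1029 and 1133 CPM in Control libraries. HFD+SAMC lay below the other 9 libraries, at -0.71 ± 0.17 against HFD and -0.86 ± 0.17 against Control+SAMC, with adjusted p-values of 0.208 and 0.0918 by edgeR. A share of all genes with such a split was not counted. Pck1, the gluconeogenic enzyme that glucagon induces, was at 335, 337 and 397 CPM in HFD+SAMC and 1071, 937 and 711 CPM in HFD libraries. It was at 431, 561 and 411 CPM in Control+SAMC and 678, 737 and 326 CPM in Control libraries. HFD+SAMC and HFD did not overlap, which held for 18.8% of all genes. The log2 fold change of Pck1 was -1.35 ± 0.28 with an adjusted p of 0.138 by edgeR. DESeq2 called Slc7a2, Hnf4a and Pck1 in HFD+SAMC against HFD, with adjusted p-values of 0.00643, 0.00228 and 0.000585.

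Ppargc1a, a coactivator of fasting metabolism, was at -1.05 ± 0.36 in HFD against Control. Foxo1 at -0.26 ± 0.15 and the hormone Fgf21 at -1.07 ± 0.67 had the smallest p-values in Control+SAMC against Control, and the glucagon receptor Gcgr was at 0.28 ± 0.16 in HFD+SAMC against Control+SAMC. In these comparisons 4 of 15 regulators were higher and 11 lower in HFD against Control, 5 and 10 in HFD+SAMC against HFD, 2 and 13 in Control+SAMC against Control, and 4 and 11 in HFD+SAMC against Control+SAMC. The medians were -0.13, -0.11, -0.15 and -0.07 in that order.

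Summed markers of periportal hepatocytes, the zone of the cycle, were at 4354 to 5187 CPM in HFD+SAMC, 4724 to 5719 CPM in HFD, 5093 to 6210 CPM in Control+SAMC and 5037 to 6713 CPM in Control. The list includes Hal and Pck1, described above. Pericentral markers, which include Rhbg, Glul and Oat, summed to 4932 to 6005 CPM in HFD+SAMC, 4029 to 5401 CPM in HFD, 4205 to 6237 CPM in Control+SAMC and 3393 to 4477 CPM in Control. Intestinal epithelium, another source of Cps1 and Otc, gave summed markers of 1.94 to 12.7 CPM, nearly all of it Fabp2, while Lct and Cdx2 did not exceed 0.13 CPM in any library. Neutrophils, which hold arginase in some species, gave 0.568 to 8.63 CPM, with Mpo at no more than 0.0432 CPM. The part of the zonal markers in the results was not tested.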

How the data were processed

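Liver RNA of 12 samples was isolated with Trizol, depleted of ribosomal RNA and sequenced in pairs on an Illumina instrument, per the labels' protocols. Trimmomatic 0.36 and FastQC are named in the submitters' processing notes. Alignment was by HISAT2, and the deposited count per gene came from HTSeq, both per the labels' protocols. The build, annotation and strand setting used are not stated in the labels. The same table holds the authors' deposited RPKM, used here only for levels between genes.

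The count tests used edgeR 4.0.16 under R 4.3.3: filterByExpr, TMM scaling and 1 quasi-likelihood fit with robust dispersion over the 12 libraries and 4 groups (8 residual degrees of freedom, common biological coefficient of variation 0.299). Tests were two-sided, with Benjamini-Hochberg adjustment over 15916 genes in each contrast and a threshold of 0.05. Fold changes are log2 ± SE, and intervals are unadjusted. Between libraries of one group the chi-square divided by its degrees of freedom was 88.8 to 652, so none was counted as a repeat. Tests were tried on simulated counts with known changes. Alternatives were DESeq2 1.42.0, RLE factors, library totals, no filter, a fit of the compared groups alone, a replicate block and leaving out libraries.

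The 10 genes and all lists were chosen with earlier results of these data known. The text names all 10, every gene of the 4 lists past the threshold in any contrast, and the 2 of each list with the smallest p in each comparison of groups. Some genes that these rules name are not reported here. Likeness used named genes (no LOC or RGD number symbols) whose mean log2 CPM reached 5, with an SD of at least 0.75 times that of the mean of the 5 enzymes. Each group had 3 libraries, and each of the 10 genes had at least 57424 counts over the 12 libraries. Of 40154 genes, 14180 were without a count in all libraries.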

Additional observations from a re-analysis of the deposited data

How the results depend on the processing

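The count of 0 called among the 10 genes held in all 7 planned contrasts under every alternative run, whereas the signs of log2 fold changes often did not. The sign turned without the 4 libraries with low fibrinogen transcripts, in HFD against Control for Cps1 (0.31), Otc (0.0055), Ass1 (0.023), Asl (0.14), Arg1 (0.38), Nags (0.00037), Slc25a15 (0.12), Gls2 (0.24) and Glud1 (0.33), and in HFD+SAMC against HFD for Cps1 (-0.61), Otc (0.077), Ass1 (-0.44), Asl (-0.54), Arg1 (-0.49), Slc25a15 (-0.52) and Glud1 (-0.32), and in Control+SAMC against Control for Otc (0.20) and Slc25a15 (0.092). With library totals in place of TMM it turned, in HFD against Control for Otc (0.20), Asl (0.0072), Arg1 (0.078), Nags (0.069), Gls2 (0.10) and Glud1 (0.093), and in Control+SAMC against Control for Otc (0.039) and Slc25a15 (0.085), and in HFD+SAMC against Control+SAMC for Otc (0.057), Asl (0.10) and Glud1 (0.038). This scaling moved the median of all genes to 0.29 in HFD against Control, 0.12 in Control+SAMC against Control and 0.15 in HFD+SAMC against Control+SAMC, and every value that turned under it was below that median. Without a filter on low counts it turned, in Control+SAMC against Control for Slc25a15 (0.010). With only the groups compared in the fit it turned, in Control+SAMC against Control for Slc25a15 (0.0080). In HFD against Control, leaving out 1 library at a time turned it for Otc (-0.43 to 0.18), Asl (-0.70 to 0.0020), Arg1 (-0.72 to 0.12), Gls2 (-0.48 to 0.013) and Glud1 (-0.55 to 0.00016). In HFD+SAMC against HFD, leaving out 1 library at a time turned it for Cps1 (-0.16 to 0.70), Otc (-0.26 to 0.18), Asl (-0.17 to 0.54), Arg1 (-0.084 to 0.76), Slc25a15 (-0.027 to 0.78), Slc25a13 (-0.092 to 0.17) and Gls2 (-0.24 to 0.25). In Control+SAMC against Control, leaving out 1 library at a time turned it for Otc (-0.43 to 0.17), Ass1 (-0.0032 to 0.50), Asl (-0.35 to 0.085), Nags (-0.070 to 0.26), Slc25a15 (-0.23 to 0.32) and Glud1 (-0.054 to 0.25). In HFD+SAMC against Control+SAMC, leaving out 1 library at a time turned it for Otc (-0.22 to 0.094), Asl (-0.25 to 0.065), Slc25a15 (-0.50 to 0.047) and Glud1 (-0.21 to 0.077). The cause of these turns was not tested.

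Samples of the same replicate number did not deviate together: over 15 pairs from different groups the correlation of their deviations ran from -0.39 to 0.36, with 3 above 0.1, and 3 of 12 libraries correlated best with one of their own number. With the replicate block 0 of the 10 genes were called, and in HFD+SAMC against HFD the sign turned for Slc25a13 (-0.11) and Gls2 (0.27). All genes called under the block numbered 24 in HFD against Control (without it 23), 11 in HFD+SAMC against HFD (without it 8), and 6 in Control+SAMC against Control (without it 19) and 2 in HFD+SAMC against Control+SAMC (without it 10). At an unadjusted p below 0.05 it found 5 of the 10 genes in HFD against Control, against 0 without it. It found 4 in HFD+SAMC against HFD, 5 in the diet average and 4 in the SAMC average, each 0 without it. The share of all genes at that threshold was not counted under the block. The median of the 10 genes was -0.65 in HFD against Control and 0.59 in HFD+SAMC against HFD under the block. HFD replicate 4 is the 1 library of its number, so the block in effect leaves it out.

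The background depended on the tool and on single libraries. For HFD against Control the 23 genes called became 315 by DESeq2, with 3 to 315 over the settings that keep the libraries or drop 4 and 4 to 53 with 1 library left out. For HFD+SAMC against HFD the 8 genes called became 249 by DESeq2, with 0 to 249 over the settings that keep the libraries or drop 4 and 1 to 27 with 1 library left out. For Control+SAMC against Control the 19 genes called became 219 by DESeq2, with 5 to 219 over the settings that keep the libraries or drop 4 and 3 to 23 with 1 library left out. For HFD+SAMC against Control+SAMC the 10 genes called became 272 by DESeq2, with 2 to 272 over the settings that keep the libraries or drop 4 and 1 to 45 with 1 library left out. For the diet average the 67 genes called became 538 by DESeq2, with 31 to 573 over the settings that keep the libraries or drop 4 and 30 to 130 with 1 library left out. For the SAMC average the 35 genes called became 436 by DESeq2, with 10 to 436 over the settings that keep the libraries or drop 4 and 13 to 68 with 1 library left out. For the interaction the 23 genes called became 128 by DESeq2, with 2 to 128 over the settings that keep the libraries or drop 4 and 7 to 19 with 1 library left out. The adjusted p of Rhbg in the diet average ran from 3.7e-07 to 0.0655 and was not below 0.05 in 5 of 18 alternatives. That of Slc7a2 in HFD+SAMC against Control ran from 1.3e-05 to 0.176 and was not below 0.05 in 7 of 19 alternatives. That of Ass1 in HFD against Control+SAMC ran from 0.0497 to 0.905 and was not below 0.05 in 18 of 19 alternatives. Without the 4 libraries HFD keeps 1, whose spread is taken from the other groups.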
